A study of Mus musculus with 16 samples.

Results

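The maturation of oocytes from old mice was followed as the difference between 4 arrays of germinal vesicle (GV) oocytes and 4 arrays of metaphase II (MII) eggs, all from B6D2 mice of 66 weeks. B6D2 is a hybrid of the inbred strains C57BL/6 and DBA/2. These 8 of the 16 arrays of the series were chosen by the stage and age in their labels. The other 8 arrays held the same stages from B6D2 mice of 6 weeks and are compared here only for how the maturation differed with age, although the fit took its estimate of spread from all 16 arrays. The stated aim of the study was to profile expression at both stages with maternal ageing. The labels name no treatment and no genetic change in any group. They do not say how the eggs were obtained, how many oocytes went into an array, or whether the arrays within a group stand for different animals or pools. Every p-value here therefore measures the spread between arrays, which may be technical.

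A fully grown GV oocyte is held in the prophase of meiosis I, with an intact nucleus and a large store of maternal mRNA. When meiosis resumes, the nuclear envelope breaks down, the chromosomes segregate into the egg and the first polar body, and the egg arrests again at metaphase of the second division until it is fertilised. Transcription is silent through these steps, so protein synthesis depends on stored mRNAs, some of which are polyadenylated and translated while others are deadenylated and degraded. In such assays cRNA is made from the poly(A) tail, so a longer tail and a larger number of transcripts cannot be told apart here. Each array was also scaled to the same mean, so a rise or a fall is relative to the rest of the array and not an amount per oocyte.

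The median signal was 31.4 to 33.1 on the GV arrays and 29.8 to 34.1 on the MII arrays, and the log2 signals of arrays within a stage correlated at 0.958 to 0.974, against 0.881 to 0.891 between stages. Between 5.34% and 5.86% of the total signal of a GV array lay in its 100 strongest probe sets, against 6.68% to 7.23% on MII arrays. All 10 oocyte markers were measured, and their mean log2 signal was 11.18 ± 0.06 in GV oocytes and 10.58 ± 0.10 in MII eggs (SD, n = 4, exact permutation p = 0.0286, the smallest that 4 against 4 arrays allow). Of these markers 4 were higher and 5 lower in MII eggs, with a median log2 change of -0.29, so they did not move together. Cumulus and granulosa cells lie around the oocyte in its follicle, and their 23 measured markers averaged 5.94 ± 0.24 in GV oocytes and 5.27 ± 0.04 in MII eggs (SD, n = 4, exact permutation p = 0.0286). The GV values were 6.11, 6.18, 5.73 and 5.74, so replicates 1 and 2 carried more of this signal than replicates 3 and 4. Of the 23 markers, 6 (26.1%) were lower and 2 (8.7%) higher in MII eggs, against 22.5% lower and 23.8% higher of all genes. Their median log2 change was -0.10, and the mean score includes deep falls of single markers such as Gja1 (-5.26) and Hsd3b1 (-3.82). Kitl and Has2 rose, by 0.40 and 0.77. Fewer cumulus cells in a sample and less RNA per cell cannot be told apart. Markers of stroma and endothelium went from 5.11 to 5.37 (exact permutation p = 0.0286) and those of blood and immune cells from 5.43 to 5.50 (exact permutation p = 0.543). The log2 ratio of 3′ to 5′ control signal is a measure of RNA integrity and labelling length for mRNAs. It was 3.39 ± 0.28 and 3.86 ± 0.07 for beta-actin in GV oocytes and MII eggs (SD, n = 4, exact permutation p = 0.0571). For 18S rRNA, which is not an mRNA, it was -0.16 ± 0.18 and 0.50 ± 0.07 (SD, n = 4, exact permutation p = 0.0286). For Gapdh it was 2.94 and 2.62 (exact permutation p = 0.0571).

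Maturation changed the signal of a large part of the measured genes, with many modest rises and fewer but much deeper falls. Of 18193 genes, each read by its strongest probe set, 4321 (23.8%) were higher and 4094 (22.5%) lower in MII eggs at a limma adjusted p under 0.05, so 46.3% changed; of all probe sets 35% changed, 18.5% higher and 16.5% lower. The groups did not overlap in 8378 genes (46.1%). At least 2-fold rises were found for 1358 genes (7.46%) and falls of that size for 2740 (15.1%). Among all 45037 probe sets, 68 rose and 2065 fell at least 4-fold, and 1 rose and 734 fell at least 8-fold. The median change of the called rises was 0.85 and that of the called falls -1.35 on the log2 scale.

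Rises were concentrated among the strongest signals. In the top 1% of genes by mean signal, 88.5% were higher and 3.85% lower in MII eggs, and between the 90th and 99th percentile 67.5% were higher and 25.3% lower. Between the 50th and 75th percentile the order was turned, with 25.6% higher and 37% lower. These splits depended on the scaling. With quantile normalization, which gives every array the same distribution of signals, 59.9% of the top 1% were higher and 15.4% lower, and the median change of those genes went from 0.55 to 0.19. Between the 50th and 75th percentile 37.4% were then higher and 30.5% lower, so the turned order was lost. Rises of under about 0.6 on the log2 scale in the strongest genes are therefore given with their value after quantile normalization where it ends the call or turns the direction. Between the 75th and 90th percentile 47.3% were higher and 40.2% lower in the main fit. The lists of meiotic arrest, cohesin, RNA polymerase II, histones, chromatin modifiers and the actin cortex below had median signals in that band. In them 53.1% to 67.9% of genes were higher and 14.6% to 30.2% lower. Decay genes (49.1% higher, 30.2% lower), oocyte transcription factors (46.7%, 40%) and cyclins with APC/C (42.5%, 40%) also had median signals there. So did mRNA storage (39.5%, 28.9%), the citric acid cycle (38.7%, 58.1%), the checkpoint (35.6%, 44.4%) and the proteasome (18.6%, 65.1%). In the text below only spindle genes and dormant mRNAs are set against a band, and other counts should be read beside these shares. The plot of change against signal shows this shape.

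**Figure D1:**
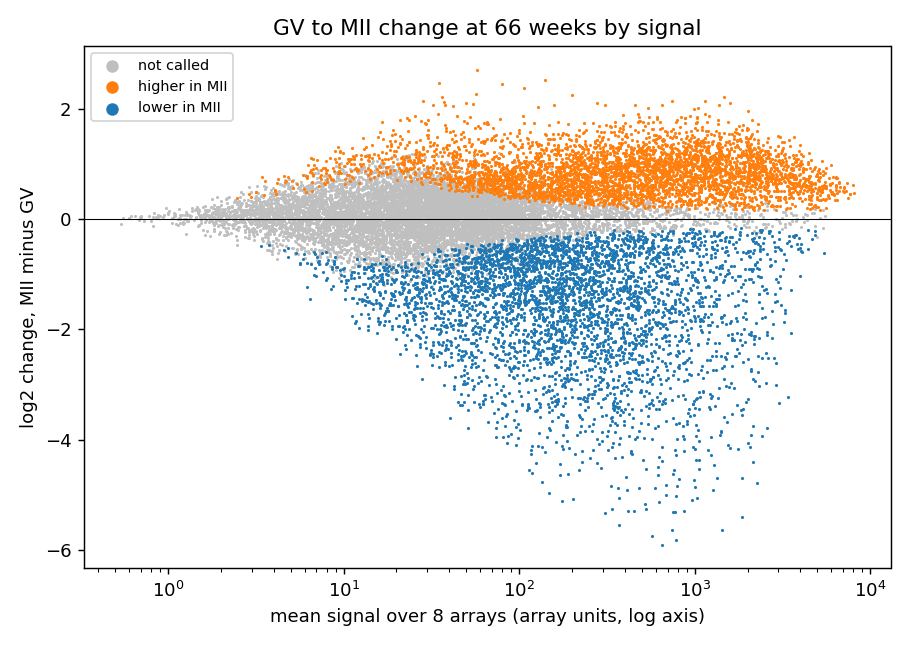
Log2 change from GV to MII at 66 weeks (vertical axis, signal plus 6.5) against the mean signal over the 8 arrays (horizontal log axis, arbitrary array units) for 18193 genes, with called rises in orange, called falls in blue and other genes in grey. The deepest fall is -5.90 and the highest rise 2.71, and rises crowd at high signals.

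The deepest falls took abundant transcripts to near the floor of the arrays. Arhgef16 read 1289, 1210, 1293 and 1342 on the GV arrays and 9.33, 6.08, 22.2 and 31.7 on the MII arrays. It fell 59.6-fold (log2 change -5.90 ± 0.26 SE, adjusted p = 7.26e-13), and the groups lay far apart. Polr3a, the largest subunit of RNA polymerase III, read 3621, 3308, 3805 and 3733 in GV oocytes and 79.4, 90.8, 83.9 and 64.4 in MII eggs (log2 change -5.40 ± 0.088 SE, adjusted p = 4.25e-18). Every GV value of both genes was above every MII value by over an order of magnitude. The largest changes are given among genes whose groups did not overlap and whose higher group averaged at least 200. The other transcripts among the 12 largest falls were BC004004, the COP9 signalosome subunit Cops6, Gm12338, the mitochondrial import subunit Timm17a, the zinc finger gene Zfp61, Pdcd2, the lysosomal amino acid sensor Slc38a9, the meiotic recombination factor Psmc3ip, the ribosomal protein gene Rpl7 and the exonuclease Dis3l, with log2 changes of -5.81 to -5.30. Another probe set of Slc38a9 rose by 0.84 on the log2 scale. These 12 genes averaged 609 to 3617 in GV oocytes and 10.3 to 79.6 in MII eggs, where the folds depend on the constant added before the logarithm: with 4 times that constant Arhgef16 fell by 4.96.

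The largest rises were much smaller than the largest falls. Gch1, which makes the first intermediate of tetrahydrobiopterin, read 452, 398, 386 and 440 in GV oocytes and 1897, 1850, 1675 and 2073 in MII eggs (4.42-fold, log2 change 2.14 ± 0.081 SE, adjusted p = 7.72e-14). Oma1, a protease of the inner mitochondrial membrane, rose from 530 ± 54.9 to 2224 ± 114 (SD, n = 4) and Ints9, an Integrator subunit, from 601 ± 93.3 to 2581 ± 104. Separate groups were a condition of this choice, so the lowest MII value was above the highest GV value in all of them. Tet3, the dioxygenase that oxidises 5-methylcytosine and acts after fertilisation, rose from 173 ± 33.1 to 741 ± 44.7 (log2 change 2.07 ± 0.19 SE, adjusted p = 1.91e-08). The RNA-binding protein Bicc1, the formin Diaph3, the centriole protein Cep135, the prefoldin subunit Pfdn1, the presynaptic priming factor Unc13b, mitochondrial glycerol-3-phosphate dehydrogenase Gpd2, the mitochondrial myosin Myo19 and the phospholipid flippase Atp10b made up the rest of the 12, with log2 changes of 2.06 to 2.52. Atp10b, with the highest of these rises, started from a mean signal of 38.3 in GV oocytes.

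Among regulators of meiotic arrest and resumption, the transcripts of the Mos pathway rose while that of the catalytic subunit of the maturation promoting factor fell. Of 32 measured genes of the list, 17 were higher and 9 lower in MII eggs, with a median change of 0.39 against 0.09 for all genes. Mos, the kinase that starts the MAP kinase cascade of meiosis and holds the egg at metaphase, read 2932, 2877, 3158 and 3080 in GV oocytes and 4999, 4811, 4459 and 4331 in MII eggs (log2 change 0.62 ± 0.061 SE, adjusted p = 5.64e-08). The groups were separate, though the rise was 0.29 after quantile normalization, where it kept its call. Map2k1, the next kinase of that cascade, rose 2.27-fold from 1822 ± 38.4 to 4140 ± 55.2 (SD, n = 4, adjusted p = 2.09e-13).

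Cdk1, which with cyclin B drives entry into meiotic metaphase, read 1426, 1368, 1345 and 1465 in GV oocytes and 247, 216, 179 and 241 in MII eggs, a 6.23-fold fall (log2 change -2.64 ± 0.11 SE, adjusted p = 2.2e-13). All 4 MII values were far below every GV value. Cyclin Ccnb1 had no probe set assigned to it alone and was not analysed here. The other B-type cyclins moved apart: Ccnb2 rose from 960 ± 76.2 to 2010 ± 37.8 (log2 change 1.06 ± 0.086 SE, adjusted p = 3.55e-09), and Ccnb3, needed to leave the first metaphase, fell from 310 ± 2.92 to 20.7 ± 7.40 (log2 change -3.59 ± 0.26 SE, adjusted p = 8.6e-10). The inhibitory kinase Wee1 fell from 336 ± 85.8 to 30.5 ± 20.6. Its oocyte-specific relative, which restrains the maturation promoting factor in the GV oocyte, is Wee2, and it went from 3834 ± 189 to 3081 ± 107 (log2 change -0.31 ± 0.053 SE, adjusted p = 6.32e-05), while another probe set of that gene rose by 0.47. The activating phosphatase Cdc25b fell by 0.53 on the log2 scale. Gpr3, the receptor that keeps cyclic AMP high during arrest, rose from 400 ± 17.3 to 587 ± 38.4 (adjusted p = 4.71e-06), and Prkar2a, a regulatory subunit of the cyclic AMP-dependent kinase, rose from 821 ± 37.2 to 1964 ± 49.1 (adjusted p = 1.44e-11). Pde3a, the phosphodiesterase that lowers cyclic AMP at resumption, was weak and did not pass the test (39.2 ± 10.7 and 48.0 ± 27.4).

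**Figure D2:**
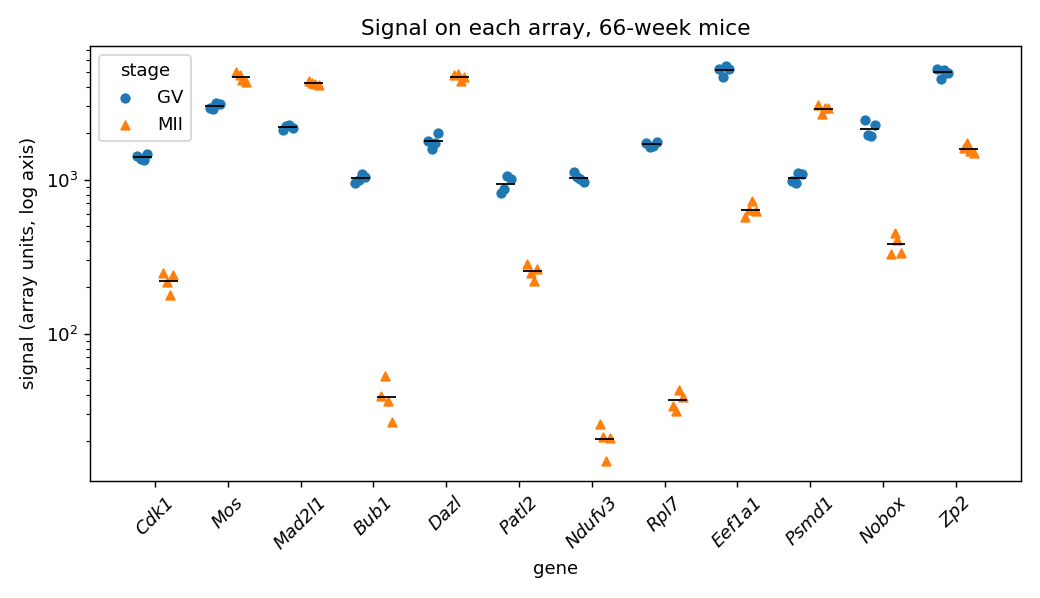
Signal on each array (points, log axis, arbitrary array units) of 12 genes named in the text, with GV arrays of 66-week mice as circles, MII arrays as triangles and group means as bars. For each of the 12 genes the 4 GV points and the 4 MII points do not overlap.

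The machinery that destroys cyclins changed subunit by subunit. Of 14 measured subunits of the anaphase-promoting complex (APC/C), the ubiquitin ligase that marks cyclin B and securin for degradation, 5 were higher and 7 lower, with a median of -0.50. Anapc10, which helps to bind substrates, rose from 871 ± 19.8 to 2593 ± 118 (2.96-fold, adjusted p = 8.08e-13), and Anapc7, a scaffold subunit, fell from 1203 ± 46.5 to 117 ± 15.2 (9.82-fold, adjusted p = 2.04e-15). The co-activators parted as well. Cdc20, which acts at metaphase, rose from 2113 ± 143 to 3857 ± 315 (log2 change 0.87 ± 0.064 SE, adjusted p = 1.07e-09), and Fzr1, the co-activator of prophase arrest, fell from 230 ± 26.4 to 68.9 ± 7.75 (log2 change -1.65 ± 0.11 SE, adjusted p = 1.82e-10). Separase (Espl1), which cleaves cohesin, rose from 1091 ± 28.2 to 2247 ± 25.5 (adjusted p = 2.85e-11), and cyclin Ccna2 rose from 1541 ± 30.8 to 3649 ± 128 (adjusted p = 8.37e-14). Btrc, the substrate receptor of another ubiquitin ligase, fell by 2.92, with another of its probe sets at 0.92. The polo kinase Plk1 fell from 592 ± 44.8 to 377 ± 27.7 (log2 change -0.64 ± 0.11 SE, adjusted p = 7.18e-05). Fbxo43, which encodes the APC/C inhibitor Emi2, was near the floor on this array (37.0 ± 4.96 and 30.1 ± 6.83) and did not pass the test. Over the whole list of 40 genes, 17 were higher and 16 lower, with a median of 0.01.

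Checkpoint and kinetochore transcripts also split. The spindle assembly checkpoint delays anaphase until chromosomes are attached, and 16 of 45 measured genes of this list were higher and 20 lower (median -0.23). Bub1, a checkpoint kinase that also protects centromeric cohesion, read 948, 998, 1088 and 1038 in GV oocytes and 39.2, 53.0, 36.7 and 26.5 in MII eggs (23.1-fold lower, log2 change -4.53 ± 0.20 SE, adjusted p = 4.65e-13). Mad2l1, which encodes the checkpoint effector MAD2, read 2087, 2237, 2258 and 2179 in GV oocytes and 4368, 4263, 4211 and 4136 in MII eggs (1.94-fold higher, log2 change 0.95 ± 0.050 SE, adjusted p = 8.4e-12). Neither gene had overlapping groups, and they moved in opposite directions. Bub1b, which encodes BUBR1, rose from 5011 ± 297 to 7711 ± 333 (log2 change 0.62 ± 0.069 SE, adjusted p = 3.24e-07) and by 0.21 after quantile normalization. Zwilch, a member of the complex that loads checkpoint proteins at kinetochores, fell from 825 ± 99.8 to 38.2 ± 9.59. The outer kinetochore protein Ndc80 rose from 546 ± 41.0 to 1450 ± 108 (adjusted p = 1.14e-10).

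Within the constitutive centromere network the contrast was as large. Cenpq fell from 1934 ± 50.4 to 88.5 ± 14.4 (20.6-fold, adjusted p = 5.72e-16) and Cenpn rose from 3462 ± 198 to 7160 ± 222 (2.07-fold, adjusted p = 2.09e-12). Among the 17 measured genes with a Cenp symbol 6 were higher and 9 lower. Aurkc, the germ cell Aurora kinase of the chromosomal passenger complex, rose from 1869 ± 75.4 to 4293 ± 358 (log2 change 1.19 ± 0.065 SE, adjusted p = 1.14e-11).

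Spindle motors and organisers changed in both directions. Of 60 measured genes 28 (46.7%) were higher and 20 (33.3%) lower, against 47.3% and 40.2% of all genes between the 75th and 90th percentile of signal, where the median signals of this list lay. The list median of 0.30 was 0.11 without MII replicate 1; among the 18 kinesins 9 were higher and 4 lower. Tpx2, which activates Aurora A and nucleates spindle microtubules, read 871, 876, 810 and 860 in GV oocytes and 1996, 1968, 1979 and 1680 in MII eggs (log2 change 1.15 ± 0.060 SE, adjusted p = 7.78e-12). The kinesin Kif20b rose from 826 ± 54.5 to 2050 ± 88.2. Tacc3, which stabilises spindle microtubules, fell from 2471 ± 69.9 to 108 ± 21.9 (21.9-fold, adjusted p = 1.24e-16), and 2 other probe sets of Tacc3 fell too. The spindle-associated protein Nusap1 fell from 2633 ± 72.1 to 622 ± 58.7, although another probe set of it was higher by 0.58.

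Cohesin holds sister chromatids together from fetal life until the egg divides. Of the 28 measured genes for cohesin, its regulators and condensin, 19 were higher and 5 lower, with a median of 0.66. The meiosis-specific subunit Smc1b read 67.2, 66.2, 94.1 and 67.3 in GV oocytes and 6.85, 22.7, 25.9 and 12.9 in MII eggs (log2 change -1.84 ± 0.31 SE, adjusted p = 7.1e-05), and the meiotic subunit Stag3 fell from 59.1 ± 7.35 to 23.3 ± 3.93 (log2 change -1.14 ± 0.22 SE, adjusted p = 0.000263). Both were weak in absolute terms, with every GV value above every MII value. Rec8, the meiotic kleisin, was near 0 in both groups (2.83 ± 0.682 and 2.82 ± 0.378). Sgo2a, the shugoshin that guards centromeric cohesin, rose from 592 ± 22 to 738 ± 18 (log2 change 0.31 ± 0.067 SE, adjusted p = 0.000852). The acetyltransferase Esco1, which secures cohesion, rose from 2416 ± 81.6 to 4108 ± 85.4. The cohesin loader Nipbl rose 3.20-fold by its strongest probe set, from 521 ± 52.0 to 1677 ± 111, but 2 other probe sets of the gene fell, by 1.52 and 1.17 on the log2 scale. The condensin subunit Ncaph fell by 0.58.

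Transcripts of mRNA-binding proteins changed in both directions. Of 38 measured genes of mRNA storage and translational control 15 were higher and 11 lower (median 0.03). Ybx1, a cold-shock protein that coats stored mRNA, rose from 2252 ± 58.7 to 5717 ± 258 (2.53-fold, adjusted p = 8.54e-14), and Igf2bp3 rose from 888 ± 16.8 to 2277 ± 82.9. Ybx2, the germ cell cold-shock protein also called MSY2, fell from 647 ± 138 to 191 ± 29.9 (log2 change -1.72 ± 0.13 SE, adjusted p = 2.46e-09). Ybx3 fell from 4180 ± 242 to 1004 ± 71.0, with another probe set at 0.31. Patl2, a component of oocyte ribonucleoprotein particles, read 814, 876, 1053 and 1007 in GV oocytes and 282, 249, 221 and 263 in MII eggs (log2 change -1.86 ± 0.10 SE, adjusted p = 2.04e-11). Every GV value was far above every MII value.

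Dazl and Cpeb1, which bind 3′ ends to switch on translation during maturation, did not move alike. Dazl read 1792, 1578, 1720 and 2000 in GV oocytes and 4773, 4829, 4353 and 4610 in MII eggs (2.62-fold, log2 change 1.39 ± 0.074 SE, adjusted p = 9.76e-12). Cpeb1 was 2144 ± 44.9 and 2097 ± 107 and did not pass the test (log2 change -0.03 ± 0.058 SE, adjusted p = 0.729), but was called lower, by 0.31, after quantile normalization. Pabpc1l, the embryonic poly(A)-binding protein, fell from 387 ± 52.4 to 246 ± 57.0 (log2 change -0.66 ± 0.15 SE, adjusted p = 0.00167). Zar1, a maternal RNA-binding protein, was 4324 ± 148 and 5576 ± 269 (log2 change 0.37 ± 0.052 SE, adjusted p = 8.68e-06) but 0.02 after quantile normalization, where it no longer passed.

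Most measured transcripts of the list known to be kept dormant in the GV oocyte and recruited to translation at maturation were higher in MII eggs. Of 16 measured genes 14 (87.5%) were higher and 1 (6.25%) lower, with a median of 0.64; after quantile normalization 12 were higher and 1 lower, with a median of 0.31. Their median signals of 2050 in GV oocytes and 4110 in MII eggs were high, and of all genes between the 90th and 99th percentile of signal 67.5% were higher, with a median of 0.63, so the list's median is near that of genes of like signal. Btg4, the adaptor that brings the deadenylase to maternal mRNAs, read 6438, 5812, 6908 and 5931 in GV oocytes and 10049, 9791, 8780 and 10055 in MII eggs (log2 change 0.63 ± 0.068 SE, adjusted p = 2.66e-07; 0.13 after quantile normalization). It was among the strongest signals of the egg. Orc6, a subunit of the origin recognition complex, rose from 1537 ± 95.3 to 3465 ± 147 and Tex19.1 from 720 ± 26.2 to 1470 ± 56.4. Slbp, the histone mRNA-binding protein, rose from 4631 ± 160 to 7226 ± 283 (log2 change 0.64 ± 0.053 SE, adjusted p = 4.73e-09), and Plat, tissue plasminogen activator, from 5252 ± 88.2 to 7229 ± 202, which was 0.03 and not called after quantile normalization. The 1 lower gene was the licensing factor Cdc6, which fell 11.6-fold from 783 ± 48.2 to 61.6 ± 6.83 (adjusted p = 5.48e-16). Dcp2, the decapping enzyme, did not pass the test (378 ± 75 and 305 ± 56.5), whereas its activator Dcp1a rose from 2323 ± 336 to 3574 ± 118. Another probe set of Dcp2 was called lower.

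Deadenylation is the first step of the decay of maternal mRNA. Of 53 measured decay genes 26 were higher and 16 lower (median 0.20), and of 10 CCR4-NOT subunits 6 were higher and 3 lower. The rises included those of catalytic subunits: Cnot6 from 255 ± 37.7 to 684 ± 38.1 (log2 change 1.41 ± 0.11 SE, adjusted p = 1.71e-09), Cnot6l from 3606 ± 240 to 6223 ± 249 (log2 change 0.79 ± 0.056 SE, adjusted p = 5.61e-10), Cnot7 from 4266 ± 111 to 6495 ± 171 (log2 change 0.61 ± 0.050 SE, adjusted p = 4.3e-09) and Cnot8 from 1257 ± 80.6 to 3083 ± 142 (log2 change 1.29 ± 0.061 SE, adjusted p = 1.55e-12). Another probe set of Cnot7 was lower, by 0.30. The deadenylase Pan2 rose from 496 ± 35.6 to 1141 ± 104. Tob1, another adaptor of the deadenylase, fell from 457 ± 53.8 to 45.8 ± 13.6, and the exosome nuclease Dis3 fell from 229 ± 16.8 to 8.68 ± 8.98 (adjusted p = 2.58e-10).

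**Figure D3:**
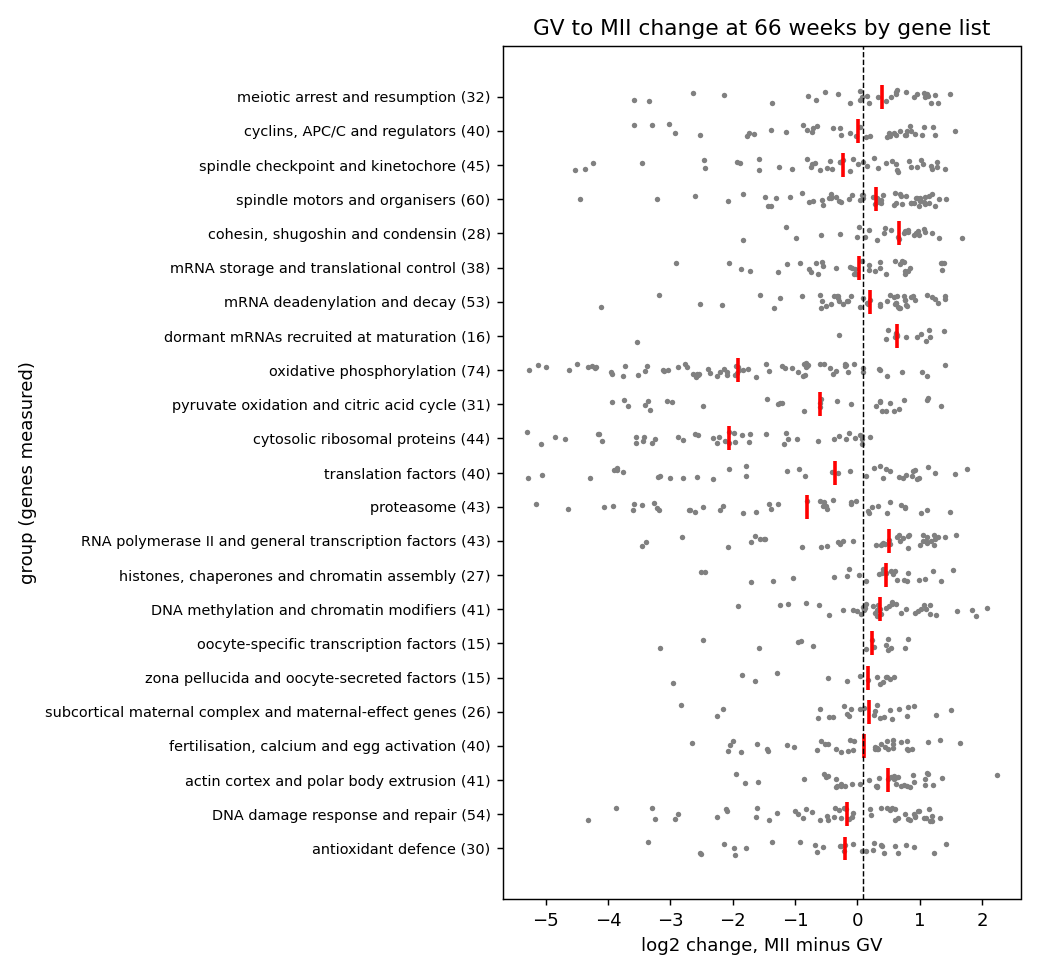
Log2 change from GV to MII at 66 weeks for every measured member (grey points) of 23 gene lists, with the list median as a red bar and the median of all 18193 genes (0.09) as a dashed line. Oxidative phosphorylation, cytosolic ribosomal proteins and the proteasome have medians of -1.92, -2.06 and -0.81, and cohesin genes and dormant mRNAs have medians of 0.66 and 0.64.

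Among whole groups, deep falls were found in the nuclear genes of oxidative phosphorylation, the respiratory chain and ATP synthase of mitochondria. Of 74 measured genes 60 (81.1%) were lower and 6 (8.11%) higher in MII eggs, 47 were lower at least 2-fold, and the median change was -1.92. Ndufv3 of complex I read 1115, 1037, 1004 and 966 in GV oocytes and 26.1, 21.3, 14.9 and 20.9 in MII eggs (38.4-fold, log2 change -5.26 ± 0.12 SE, adjusted p = 1.8e-16). Ndufa2 of the same complex fell from 2260 ± 38.6 to 118 ± 10.1 (adjusted p = 2.18e-17). No MII array reached the GV range for either gene.

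The falls were spread over the complexes. In complex I, which takes electrons from NADH, 29 of 34 genes were lower and 2 higher (median -2.17). ATP synthase had 13 of 15 lower and 1 higher (median -2.09), complex III 7 of 9 lower and 1 higher (median -0.96), and complex IV, cytochrome c oxidase, 6 of 10 lower and 1 higher (median -0.30). Complex II, which also works in the citric acid cycle, had 3 of 4 lower and 1 higher. The exceptions were clear. Uqcrc2, a core subunit of complex III, rose from 2325 ± 135 to 5019 ± 165 (2.16-fold, adjusted p = 4.06e-12), and Atp5b, the catalytic subunit of ATP synthase, rose from 740 ± 80.2 to 1212 ± 27.3 (log2 change 0.71 ± 0.091 SE, adjusted p = 2.33e-06). Ndufa10 read 653, 754, 688 and 671 in GV oocytes and 1774, 1882, 1819 and 1849 in MII eggs, but another of its probe sets was lower, by 1.02 on the log2 scale.

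**Figure D4:**
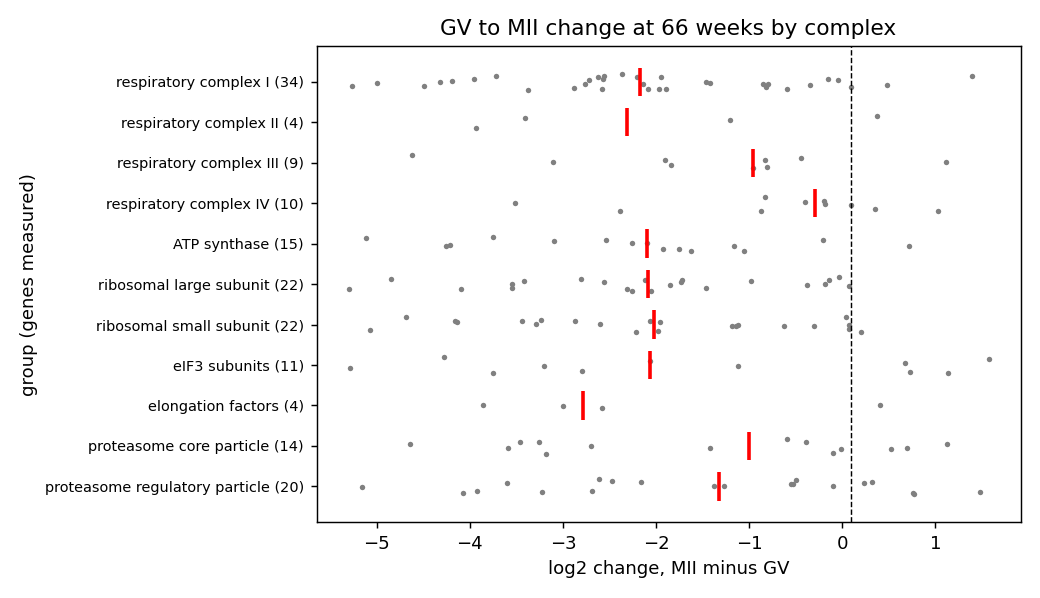
Log2 change from GV to MII at 66 weeks of each measured gene (points) of the respiratory complexes, ATP synthase, ribosomal subunits, translation factor groups and proteasome particles, with medians as red bars. Medians lie below -2 in complex I, complex II, ATP synthase, both ribosomal subunits, eIF3 and the elongation factors, and every group drawn has at least 1 point above 0.

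Genes of pyruvate oxidation and the citric acid cycle were less uniform, with 12 of 31 higher and 18 lower (median -0.60). Mdh2, mitochondrial malate dehydrogenase, fell from 2832 ± 76.0 to 217 ± 32.7 (12.8-fold, adjusted p = 1.41e-16) and Aco1, the cytosolic aconitase and iron regulator, from 2844 ± 67.5 to 357 ± 36.9 (7.88-fold, adjusted p = 3.99e-16). Pdk1, the kinase that switches off pyruvate dehydrogenase, rose from 845 ± 39.9 to 2147 ± 127 (2.53-fold, adjusted p = 2.67e-11), and Suclg2, a subunit of succinyl-CoA ligase, rose from 637 ± 41.6 to 1395 ± 171.

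Cytosolic ribosomal protein mRNAs fell as deeply. They belong to the class whose transcripts start with a run of pyrimidines, the 5′ terminal oligopyrimidine (TOP) tract, through which their translation is controlled together. To show this shared start, the 30 bases around the annotated start (15 before and 15 from it on, 5′ to 3′ on the gene's strand) are given for 4 members, with the pyrimidine run in capitals. They were chosen for the length of the run among members called lower in MII eggs, so their falls were fixed by the choice. Members on a chromosome that had been set aside could not be chosen. The positions are those of RefSeq on GRCm38.p6: chr2:26910792-26910821 on the plus strand for Rpl7a, chr7:109519180-109519209 on the plus strand for Rpl27a, chr2:39005117-39005146 on the minus strand for Rpl35 and chr19:6057932-6057961 on the plus strand for Fau. Each window spans the last bases of the promoter and the first bases of the transcript.
Rpl7a: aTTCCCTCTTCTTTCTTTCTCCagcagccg
Rpl27a: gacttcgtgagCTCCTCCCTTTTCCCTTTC
Rpl35: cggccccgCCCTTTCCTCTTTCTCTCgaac
Fau: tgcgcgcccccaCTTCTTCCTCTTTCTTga
A run of at least 8 C or T covering the annotated start base, read on the gene's strand only, was found for 13 of 39 ribosomal protein genes with a promoter in the table (33.3%) and for 1240 of 27025 genes in all (4.59%). The annotated start can lie a few bases from the true one, and no run says only that these letters are not at the annotated base.

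Of the 44 measured ribosomal protein genes, out of 79 listed, 35 (79.5%) were lower and 1 (2.27%) higher, with a median of -2.06, and 32 were lower at least 2-fold. The other 35 had no probe set assigned to them alone, and probe sets of ribosomal protein genes can also read RNA of their pseudogene copies. Rpl7 read 1723, 1627, 1653 and 1764 in GV oocytes and 34.0, 31.3, 43.2 and 38.9 in MII eggs (39.4-fold, log2 change -5.30 ± 0.090 SE, adjusted p = 4.44e-18). Rps4x fell from 3572 ± 83.6 to 132 ± 8.75 (25.8-fold, adjusted p = 4.25e-18). The 4 genes whose starts are shown had been picked among called falls. Of these, Rpl7a fell from 2942 ± 254 to 169 ± 36.1, Rpl35 from 3448 ± 97.6 to 290 ± 27.5 and Rpl27a from 84.7 ± 10.5 to 9.24 ± 3.43. Fau, whose product is cut into a ubiquitin-like protein and a small-subunit protein, fell from 970 ± 92.7 to 635 ± 134.

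Both subunits took part. In the large subunit 18 of 22 genes were lower and 0 higher (limma, 0 also at an unadjusted p under 0.05; median -2.09), and in the small subunit 17 of 22 were lower and 1 higher (median -2.02). The 1 higher gene, Rps2, read 4177, 3902, 4215 and 3934 in GV oocytes and 4700, 4646, 4441 and 4805 in MII eggs (log2 change 0.20 ± 0.050 SE, adjusted p = 0.00365), and its direction turned to -0.13 after quantile normalization. Ribosomal genes with the pyrimidine run had 11 of 13 lower and a median of -2.21, and those without it 19 of 26 lower and a median of -1.85. Among other genes, 21.5% of the 669 with the run and 22.9% of the 13744 without it were lower.

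Translation factors were mixed, with 17 of 40 higher and 20 lower (median -0.36). Eef1a1, the elongation factor that delivers aminoacyl-tRNA and a TOP mRNA itself, read 5193, 4650, 5496 and 5214 in GV oocytes and 571, 633, 721 and 622 in MII eggs (8.01-fold, log2 change -3.00 ± 0.081 SE, adjusted p = 7.82e-16). Its exchange factor Eef1d fell from 2655 ± 164 to 177 ± 14.6. Of 11 subunits of the initiation factor eIF3 7 were lower and 4 higher, from -5.29 to 1.57, and Eif3i rose from 1861 ± 59.6 to 4108 ± 139. Eif4a2, an initiation helicase, rose from 356 ± 29.4 to 1217 ± 54.8 (3.38-fold, adjusted p = 1.2e-12).

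The proteasome, which degrades ubiquitin-marked proteins, had 28 of 43 genes lower and 8 higher (median -0.81). The core particle held 9 lower and 3 higher of 14, and the regulatory particle 14 lower and 4 higher of 20. Psmb4 of the core read 2882, 2670, 2885 and 2474 in GV oocytes and 246, 205, 207 and 227 in MII eggs (12-fold, log2 change -3.59 ± 0.086 SE, adjusted p = 1.98e-16). Psmd1, the largest subunit of the regulatory particle, read 985, 950, 1105 and 1083 in GV oocytes and 3056, 2660, 2918 and 2901 in MII eggs (2.79-fold, log2 change 1.48 ± 0.068 SE, adjusted p = 1.02e-12). Both genes had separate groups, in opposite directions. Psmd6 fell from 1953 ± 99.5 to 204 ± 12.2, and the core subunit Psma7 rose from 1415 ± 39.4 to 3093 ± 204.

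Genes of the transcription machinery, which the silent egg will need when the embryonic genome is activated, rose more often than they fell. Of 43 measured genes of RNA polymerase II and its general factors 27 were higher and 13 lower (median 0.50), and of 14 subunits of TFIID, the factor that binds the core promoter, 11 were higher and 3 lower (median 0.82). Taf13 rose from 1636 ± 40.4 to 3412 ± 136 and the polymerase subunit Polr2f from 707 ± 15.7 to 1659 ± 112. Ccnh, the cyclin of the TFIIH kinase, fell from 1938 ± 79.2 to 175 ± 37.3 (10.9-fold, adjusted p = 1.68e-13), and Polr2i fell from 1626 ± 82.5 to 226 ± 19.6 (7.04-fold, adjusted p = 1.88e-15).

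Histones, chaperones and assembly factors had 16 of 27 genes higher and 5 lower (median 0.46; 13 higher and 7 lower after quantile normalization). H1f8, the linker histone of the oocyte, rose from 2947 ± 30.8 to 5871 ± 362 (1.99-fold, adjusted p = 5.23e-11), and the chaperone Asf1b rose from 1533 ± 19.7 to 3247 ± 121. The variant histone H2ax fell from 1127 ± 108 to 346 ± 65.1 and H2az1 from 615 ± 47.0 to 237 ± 32.0.

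Of 41 measured genes of DNA methylation and chromatin modification 22 were higher and 6 lower (median 0.37). Dnmt3a, the methyltransferase that sets maternal imprints, read 623, 611, 517 and 603 in GV oocytes and 1680, 1935, 1736 and 1817 in MII eggs by its strongest probe set (3.02-fold, log2 change 1.60 ± 0.085 SE, adjusted p = 9.61e-12). Another probe set of Dnmt3a fell by 4.23 on the log2 scale and 2 others rose, so its probe sets disagreed. Ctcf, the insulator protein, rose from 484 ± 41.8 to 1816 ± 109 (3.72-fold, adjusted p = 2.87e-13). Dnmt1, which maintains methylation in the embryo, fell from 4452 ± 226 to 3241 ± 135 (log2 change -0.46 ± 0.064 SE, adjusted p = 7.43e-06). The methyltransferase Setdb1 and the deacetylase Hdac1 fell by 1.24 and 1.92 on the log2 scale. Dppa3, which protects maternal methylation, was 4545 ± 358 and 6673 ± 250 (log2 change 0.56 ± 0.084 SE, adjusted p = 1.72e-05), with 0.19 and no call after quantile normalization.

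Nobox, Figla and Lhx8, transcription factors that build the oocyte during growth, fell. Nobox read 2423, 1954, 1915 and 2258 in GV oocytes and 331, 449, 403 and 334 in MII eggs (5.57-fold, log2 change -2.48 ± 0.11 SE, adjusted p = 1.23e-12). Figla fell from 297 ± 8.65 to 32.6 ± 18.7 (log2 change -3.17 ± 0.42 SE, adjusted p = 3.79e-06) and Lhx8 from 2536 ± 80.0 to 850 ± 53.9 (log2 change -1.57 ± 0.067 SE, adjusted p = 3.78e-13). All 3 had separate groups. The homeobox gene Obox5 rose from 4548 ± 145 to 7726 ± 270, and Taf4b, a gonadal TFIID subunit, from 466 ± 30.7 to 829 ± 76.6. Over the list of 15, 7 were higher and 6 lower, and 5 and 6 after quantile normalization.

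The zona pellucida genes, targets of Figla that encode the egg coat, fell together. Zp2, which binds sperm, read 5240, 4515, 5184 and 4919 in GV oocytes and 1605, 1741, 1525 and 1484 in MII eggs (3.12-fold, log2 change -1.64 ± 0.10 SE, adjusted p = 1.21e-10). Zp1 fell from 2542 ± 66.3 to 699 ± 18.8 (log2 change -1.85 ± 0.086 SE, adjusted p = 1.22e-12) and Zp3 from 5051 ± 295 to 2058 ± 94.5 (log2 change -1.29 ± 0.090 SE, adjusted p = 4.27e-10). For each of the 3 every GV value was above every MII value. The growth factor Fgf8, by which the oocyte acts on cumulus cells, fell from 329 ± 59.6 to 36.2 ± 3.61 (7.79-fold, adjusted p = 1.87e-11).

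Other oocyte-secreted factors kept high signals. Gdf9 read 7369, 6122, 6893 and 6581 in GV oocytes and 10131, 9015, 8609 and 9785 in MII eggs (log2 change 0.48 ± 0.079 SE, adjusted p = 5.26e-05), which went to -0.002 after quantile normalization. Its partner Bmp15 was 2012 ± 123 and 2066 ± 145 and did not pass the test, and it went from 0.04 to a called -0.23 under that normalization. The 2 other probe sets of Bmp15 were called higher in MII eggs in the main fit. The oocyte-secreted proteins Oosp1 and Oosp3 were higher by 0.52 and 0.58, and by 0.08 and 0.13 after quantile normalization, where Oosp1 lost its call. For the 15 genes of this list the count of 7 higher and 5 lower became 2 higher and 8 lower, and the median went from 0.16 to -0.21.

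Maternal-effect genes are needed in the egg for the embryo to develop. Padi6, which builds the cytoplasmic lattices of the egg, read 4661, 4169, 4561 and 4619 in GV oocytes and 1074, 1016, 951 and 980 in MII eggs (4.46-fold, log2 change -2.16 ± 0.071 SE, adjusted p = 1.04e-14). Nlrp5 fell from 4906 ± 535 to 3250 ± 465 (log2 change -0.60 ± 0.12 SE, adjusted p = 0.000285), Tle6 from 3927 ± 304 to 2529 ± 220 (log2 change -0.63 ± 0.098 SE, adjusted p = 2.34e-05) and Khdc3 from 804 ± 144 to 165 ± 37.8 (log2 change -2.25 ± 0.14 SE, adjusted p = 8.42e-11). These 3 encode members of the subcortical maternal complex. Ooep of the same complex did not pass the test (5697 ± 397 and 5086 ± 79.6; lower by 0.58 and called after quantile normalization). The ubiquitin-conjugating enzyme Ube2a fell from 1681 ± 130 to 231 ± 16.7. Atg5 and Brwd1 were higher by 1.50 and 1.27 on the log2 scale, each with another probe set that was lower by 1.19 and 1.58. Of 26 measured genes 13 were higher and 7 lower, which became 6 higher and 11 lower after quantile normalization, with the median going from 0.19 to -0.06.

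The genes with which the egg meets the sperm and answers it changed in both directions, 13 higher and 13 lower of 40 (median 0.11). Izumo1r, which encodes the sperm receptor JUNO, fell from 699 ± 79.5 to 224 ± 8.89 (log2 change -1.61 ± 0.090 SE, adjusted p = 1.86e-11), and Cd9, the tetraspanin needed for fusion, read 311, 300, 390 and 355 in GV oocytes and 49.7, 61.2, 45.4 and 38.4 in MII eggs (6.29-fold, log2 change -2.65 ± 0.19 SE, adjusted p = 4.53e-10). Itpr2, a calcium channel of the endoplasmic reticulum, read 997, 951, 908 and 982 in GV oocytes and 3031, 3102, 2776 and 3144 in MII eggs (3.12-fold, log2 change 1.64 ± 0.063 SE, adjusted p = 9.25e-14). Izumo1r and Cd9 fell and Itpr2 rose, with separate groups in each case. Stim2, a calcium sensor, and Atp2b3, a calcium pump, fell by 2.05 and 2.07. Nsf, which drives membrane fusion in exocytosis, rose 2.19-fold by its strongest probe set, but another fell by 3.15 on the log2 scale.

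Among genes of the actin cortex and polar body extrusion, 23 of 41 were higher and 10 lower (median 0.49). Anln, a scaffold of the contractile ring, rose from 1420 ± 25.2 to 3311 ± 89.6 and Arpc2, a subunit of the actin-nucleating Arp2/3 complex, from 2465 ± 103 to 5222 ± 161. The cytoplasmic actin gene Actg1 fell from 1691 ± 149 to 478 ± 24.9. Wasf2, an activator of Arp2/3, fell by 0.86, with another probe set higher by 1.07.

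DNA repair genes were divided, 21 of 54 higher and 23 lower (median -0.16). Xrcc5, which encodes the end-joining protein Ku80, fell from 433 ± 34.8 to 38.9 ± 8.62 (9.80-fold, adjusted p = 1.85e-12), and Rad50, of the complex that senses double-strand breaks, fell 3.05-fold from a mean of 731 (adjusted p = 1.1e-12). Rpa3, a subunit of the single-strand binding protein, rose from 757 ± 48.0 to 1912 ± 104, and Ddb2, which recognises ultraviolet damage, from 888 ± 35.8 to 1875 ± 124.

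Antioxidant genes had 9 of 30 higher and 10 lower, with a median of -0.20 that became 0.04 after quantile normalization. Sod1, the cytosolic superoxide dismutase, read 4444, 4425, 4517 and 4517 in GV oocytes and 796, 856, 758 and 709 in MII eggs (5.72-fold, log2 change -2.52 ± 0.058 SE, adjusted p = 1.41e-16), and Glrx5, which works in iron-sulphur cluster assembly, fell from 4138 ± 182 to 719 ± 40.1. Gclm, the regulatory subunit of glutathione synthesis, rose from 513 ± 55.7 to 1375 ± 74.4. Prdx2, a peroxiredoxin, rose from 2462 ± 172 to 4648 ± 178, with another probe set lower by 0.46.

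Whether maturation ran differently in old than in young mice was tested as the difference between the change at 66 weeks and the change at 6 weeks. In 6-week mice 36.1% of probe sets changed, 20.1% higher and 16% lower, and 47.3% of genes, 25.1% higher and 22.2% lower. Of the 15761 probe sets called at 66 weeks, 12522 were also called at 6 weeks in the same direction and 88 in the opposite one. The difference itself passed for 4.56% of probe sets (2.35% more positive and 2.21% more negative) and for 1080 genes (5.94%), with 574 (3.16%) more positive and 506 (2.78%) more negative at 66 weeks. The RNA controls moved with age as well: the 18S log2 ratio went from -0.75 to -1.84 during maturation at 6 weeks but from -0.16 to 0.50 at 66 weeks, and that of beta-actin from 2.97 to 2.81 but from 3.39 to 3.86. That of Gapdh fell at both ages, from 2.59 to 2.41 at 6 weeks and from 2.94 to 2.62 at 66 weeks. The cumulus marker score was 5.34 and 5.22 at 6 weeks, against 5.94 and 5.27 at 66 weeks. The part of these differences in the following results was not tested.

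The largest positive differences were in genes that rose more in old mice than in young, fell less, or had changes of opposite sign. Such a difference can lie in either stage. Taf7 averaged 165 at 66 weeks and 552 at 6 weeks in GV oocytes, and 501 and 378 in MII eggs. Syne2 averaged 67.8 and 188 in GV oocytes, and 212 and 163 in MII eggs. For Pfdn1 the means were 521 and 663 in GV oocytes, and 2404 and 804 in MII eggs. Cep135, Mis18a and Fam229b also differed by a larger fold between ages in MII eggs. Taf7, a TFIID subunit, read 214, 163, 130 and 151 in GV oocytes and 409, 591, 514 and 490 in MII eggs of 66-week mice, a rise of 1.58, and changed by -0.53 at 6 weeks (difference 2.11 ± 0.20 SE, adjusted p = 6.91e-06). Pfdn1, a subunit of a chaperone for actin and tubulin, read 673, 475, 500 and 436 in GV oocytes and 2219, 2630, 2319 and 2447 in MII eggs of old mice; its change was 2.21 against 0.29 at 6 weeks (difference 1.91 ± 0.19 SE, adjusted p = 1.27e-05). Both genes had separate GV and MII values at 66 weeks. Cep135 rose by 2.11 at 66 weeks against a change of 0.35 at 6 weeks (difference 1.76 ± 0.22 SE, adjusted p = 0.000102). Mis18a, which licenses centromeres for new CENP-A, read 1966, 1869, 2078 and 1926 in GV oocytes and 1793, 1776, 1384 and 1534 in MII eggs. This change of -0.28 did not pass at 66 weeks (it was -0.53 and called after quantile normalization), whereas at 6 weeks the change was -2.06 (difference 1.78 ± 0.28 SE, adjusted p = 0.000693). Fam229b fell by 2.69 at 66 weeks and by 4.53 at 6 weeks (difference 1.84 ± 0.37 SE, adjusted p = 0.0054). Its MII means were weak, 45.9 ± 9.24 at 66 weeks and 12.8 ± 9.96 at 6 weeks, where the size depends on the added constant. Syne2, a nuclear envelope protein, rose by 1.54 against -0.20 (difference 1.74 ± 0.17 SE, adjusted p = 8.94e-06), but another of its probe sets fell by 2.33 at 66 weeks.

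The largest negative difference belonged to a gene of cumulus cells. Gja1, the gap junction protein connexin 43 and one of the cumulus markers, read 988, 1035, 339 and 312 in GV oocytes and 1.66, 16, 8.24 and 13.2 in MII eggs of 66-week mice (log2 change -5.26 ± 0.56 SE, adjusted p = 1.72e-07), against -1.50 at 6 weeks (difference -3.75 ± 0.79 SE, adjusted p = 0.00758). GV replicates 1 and 2 held the high values, as they did for the marker score, and without both of them the difference was -2.944 and lost its call (adjusted p = 0.0734). Kctd14 followed the same arrays (377, 397, 177 and 194 in GV oocytes, with a difference of -1.72) and was likewise lost without them (-1.20, adjusted p = 0.0873). Dsp, the desmosomal protein desmoplakin, fell by 3.34 at 66 weeks and 1.70 at 6 weeks (difference -1.64 ± 0.38 SE, adjusted p = 0.015). Tanc2, the histone methyltransferase Kmt2b and the RNA-binding protein Thumpd1 rose at both ages but less at 66 weeks, by 0.78, 0.38 and 1.20 against 2.37, 1.88 and 2.69 (adjusted p of the difference 2.06e-06, 3.47e-06 and 9.47e-05). Another probe set of Tanc2 fell by 1.49 at 66 weeks.

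**Figure D5:**
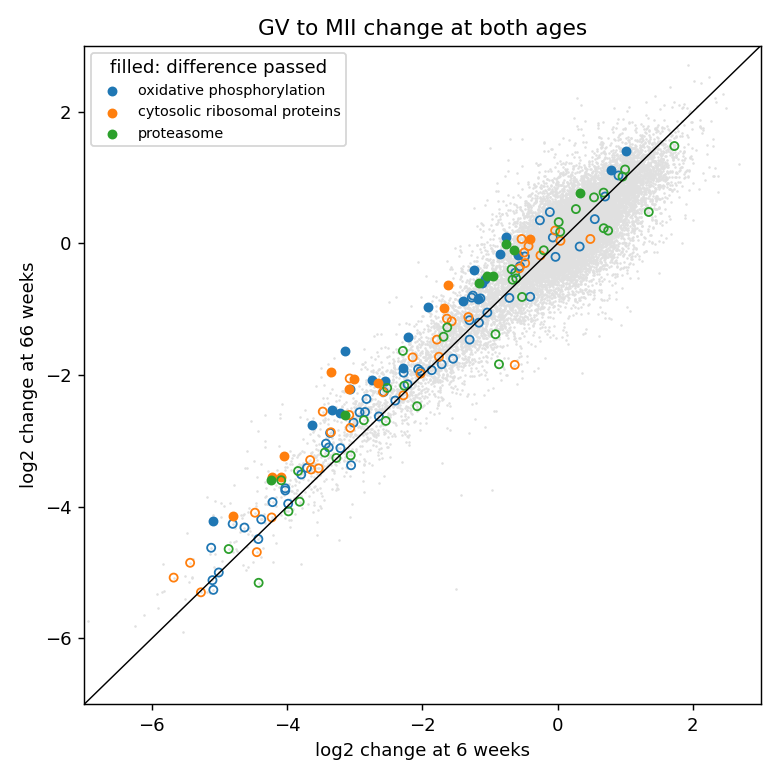
Log2 change from GV to MII at 66 weeks (vertical axis) against that at 6 weeks (horizontal axis) for the measured genes of oxidative phosphorylation (blue), cytosolic ribosomal proteins (orange) and the proteasome (green), with all other genes in light grey and the line of equal change. Filled points passed the test of the difference between ages, and all of them lie above the line.

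Genes of oxidative phosphorylation, the ribosome and the proteasome differed between ages in 1 direction only among those that passed. Over all genes 3.16% passed with a more positive change at 66 weeks and 2.78% with a more negative one. Of 74 oxidative phosphorylation genes 21 had a more positive change at 66 weeks and 0 a more negative one, and of 44 ribosomal protein genes 11 and 0. For the proteasome the counts were 8 and 0 of 43 (limma, adjusted p under 0.05 over all probe sets). At an unadjusted p under 0.05, 1, 2 and 5 genes of these lists had a more negative change. The median changes were -1.92 at 66 weeks and -2.21 at 6 weeks for the first list, -2.06 and -2.62 for the second, and -0.81 and -0.96 for the third, so all 3 medians lay nearer to 0 in old mice, as they also did after quantile normalization, after centring and without GV replicates 1 and 2. Cox6c of complex IV did not pass at 66 weeks (2315 ± 56.8 and 2482 ± 211; lower by 0.21 and called after quantile normalization) and fell by 0.76 at 6 weeks (difference 0.86 ± 0.10 SE, adjusted p = 6.36e-05). Rps29 of the small subunit fell by 2.06 and 3.00 (difference 0.94 ± 0.11 SE, adjusted p = 7.77e-05), and Fau by 0.63 and 1.62 (difference 0.99 ± 0.20 SE, adjusted p = 0.00651). Mdh2 fell by 3.68 and 4.78 (difference 1.10 ± 0.12 SE, adjusted p = 3.2e-05). These genes and the RNA controls moved with age on the same arrays.

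Among regulators described above, the fall of Cdk1 was also shallower at 66 weeks, -2.64 against -3.81 (difference 1.17 ± 0.15 SE, adjusted p = 0.000154), and Plk1, which fell at 66 weeks, had a change of 0.17 at 6 weeks (difference -0.81 ± 0.15 SE, adjusted p = 0.00358). The rise of Dnmt3a by its strongest probe set was 1.60 against 0.08 (difference 1.52 ± 0.12 SE, adjusted p = 1.78e-06), and that of Ctcf 1.90 against 0.97 (difference 0.93 ± 0.11 SE, adjusted p = 7.77e-05). In GV oocytes Dnmt3a averaged 589 at 66 weeks and 1149 at 6 weeks, and Ctcf 484 and 824. In MII eggs the means were 1792 and 1218 for Dnmt3a, and 1816 and 1610 for Ctcf. Gch1 rose by 2.14 against 1.31 (difference 0.83 ± 0.11 SE, adjusted p = 0.000244) and Anapc10 by 1.57 against 1.05 (difference 0.51 ± 0.099 SE, adjusted p = 0.00419). Gpr3 rose less in old mice, by 0.55 against 1.12 (difference -0.57 ± 0.10 SE, adjusted p = 0.00286). Zp2 fell by 1.64 against 2.33 (difference 0.69 ± 0.15 SE, adjusted p = 0.00902). For Mos, Btg4, Dazl, Tpx2, Mad2l1 and Bub1 the difference did not pass the test, with differences of 0.21, 0.23, 0.25, -0.07, -0.03 and 0.23.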

How the data were processed

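RNA of GV oocytes and MII eggs was labelled as biotinylated cRNA and measured on 16 one-colour arrays of 45101 probe sets, 4 per stage and age. The authors deposited signal intensity on a linear scale, made with MAS5 per the submitters' processing notes, whose version is not given in the sources used here. All arrays share a trimmed mean of 150.001 (2% left out at each tail). From these values 64 control probe sets were set aside, 6.5 (the 20th percentile of all values) was added, and log2 values of 45037 probe sets were fitted with limma 3.58.1 in R 4.3.3. The model held 4 group means over all 16 arrays (12 residual degrees of freedom) with trended empirical Bayes variances, and p-values were adjusted by Benjamini-Hochberg over all probe sets, with a threshold of 0.05. It was tested on simulated data. A fold or log2 change is on the scale of signal plus 6.5, which understates changes of weak genes. The number of arrays limits the precision.

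For each of 18193 genes, the probe set of highest mean log2 signal over all arrays stood for the gene. Of the non-control probe sets 34945 had 1 gene symbol in the platform annotation, 932 several and 9160 none. Symbols were updated by Entrez ID where RefSeq (GRCm38.p6) held it. Members and gene lists were chosen with earlier results of these data known. Named genes were the 12 largest rises and 12 largest falls with separate groups and a mean of at least 200, up to 2 genes each way per list by adjusted p, 50 listed genes of oocyte biology (47 matched), and the 6 largest differences between ages each way. Atp5b, Bub1, Cnot6, Cox6c, Espl1, Fau, Khdc3, Ndc80, Ooep, Rpl27a, Rpl35, Rpl7a, Rps29, Stag3 and Wee1 were named after their values were seen. Promoter windows came from RefSeq on GRCm38.p6. Single scores were compared by a two-sided exact permutation test over arrays. Alternatives were the added constant, a signal filter, quantile normalization, median centring, the replicate number or neighbouring arrays as a block, the 8 arrays alone, other probe sets, and leaving out arrays.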

Additional observations from a re-analysis of the deposited data

Results flagged for a closer look

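Of 76 groups of 4 arrays, 3 held an array far from the other 3 by Dixon's test, and chance alone gives about 1 in 20. They were Smc1b in GV oocytes (ratio 0.961, replicate 3 high), Tpx2 in MII eggs (0.910, replicate 4 low) and the beta-actin 3′ to 5′ ratio in GV oocytes (0.932, replicate 1 high).

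The change from GV to MII differed between 66 and 6 weeks for 1080 genes by the test of the difference. It passed for 48 of the 184 genes chosen by name. The differences were 2.11 for Taf7, 1.91 for Pfdn1, 1.84 for Fam229b, 1.78 for Mis18a, 1.76 for Cep135, 1.74 for Syne2, 1.52 for Dnmt3a, 1.17 for Cdk1 and 1.10 for Mdh2. They were 0.99 for Fau, 0.94 for Rps29, 0.93 for Ctcf, 0.90 for Nsf, 0.86 for Cox6c, 0.86 for Tob1, 0.83 for Gch1, 0.80 for Diaph3, 0.77 for Ube2a, 0.72 for Nlrp5, 0.69 for Zp2, 0.65 for Polr2f, 0.65 for Psmb4 and 0.60 for Eef1a1. Smaller positive differences were 0.54 for Ncaph, 0.54 for Rpl35, 0.51 for Anapc10, 0.47 for Eef1d, 0.45 for Ybx3, 0.39 for Ndufa10, 0.38 for Eif3i, 0.33 for Prdx2, 0.31 for Orc6, 0.31 for Uqcrc2 and 0.25 for Map2k1. The negative differences were -3.75 for Gja1, -1.72 for Kctd14, -1.64 for Dsp, -1.59 for Tanc2, -1.50 for Kmt2b, -1.49 for Thumpd1, -1.04 for Tet3, -0.81 for Plk1, -0.57 for Gpr3, -0.56 for Wasf2, -0.52 for Bmp15, -0.46 for Cdc6, -0.46 for Nipbl and -0.39 for Sgo2a. Without GV replicates 1 and 2 of 66-week mice, a fit with fewer arrays, 14 of these 48 differences no longer passed. They were those of Diaph3, Tet3, Map2k1, Ncaph, Ybx3, Tob1, Cdc6, Eef1d, Prdx2, Gja1, Sgo2a, Nlrp5, Kctd14 and Rpl35.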

How the results depend on the processing

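The count of 15761 changed probe sets was 15388 to 16269 under the other constants, scalings, blocks and array choices run on all probe sets, except 13648 without GV replicates 1 and 2, and 14091 of the 22518 strongest. Leaving out 1 array gave 14767 to 15301. Same-numbered GV and MII arrays of old mice did not deviate together (correlations of -0.023 to 0.034). Those of young mice were not compared. The labels do not say what the replicate numbers stand for, so these values cannot exclude shared animals, pools or days. With the replicate block 15447 probe sets changed and 1756 differed between ages. That second count, 2052 as reported, was 1642 after median centring, 1432 without GV replicates 1 and 2, 2532 of the stronger 50% of probe sets, 1895 to 2071 under the other settings run on all probe sets and 1663 to 2036 without 1 array.

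After quantile normalization Rps2 turned to -0.134, Gdf9 to -0.002, Bmp15 to -0.234 and Cox6c to -0.210. Of the other probe sets of named genes, 91 gave the same outcome as the strongest, 72 did not pass where it did, 4 passed where it did not, and 17 were called in the opposite direction, for Slc38a9 (0.841), Btrc (0.918), Nusap1 (0.581), Nipbl (-1.515 and -1.165), Ybx3 (0.306), Ndufa10 (-1.021), Dnmt3a (-4.226), Atg5 (-1.192), Brwd1 (-1.575), Nsf (-3.151), Wasf2 (1.073), Prdx2 (-0.457), Wee2 (0.472), Cnot7 (-0.296), Syne2 (-2.330) and Tanc2 (-1.487). Quantile normalization also moved called rises of strong genes by over 1.5 times without ending the call, to 0.444 for Cnot6l, 0.253 for Cnot7, 0.243 for Slbp, 0.332 for Dcp1a, 0.442 for Esco1, 0.365 for Obox5, 0.559 for Cdc20, 0.630 for Mad2l1, 0.688 for Cenpn, 0.647 for H1f8 and 0.601 for Prdx2, and falls to -0.631 for Wee2, -0.284 for Cdc25b, -0.404 for Pabpc1l, -0.780 for Dnmt1, -0.941 for Nlrp5 and -0.953 for Tle6. The cause was not tested.

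Quantile normalization moved the list medians to 0.091 for cyclins and APC/C, 0.441 for cohesin, 0.310 for dormant mRNAs, -0.289 for the citric acid cycle, -0.100 for translation factors, 0.674 for RNA polymerase II, 0.206 for histones, 0.010 for oocyte transcription factors, -0.208 for zona and secreted factors, -0.055 for maternal-effect genes, 0.297 for the actin cortex, -0.065 for DNA repair and 0.037 for antioxidants. In the stronger 50% of probe sets the cyclin median was 0.136, that of egg activation -0.050, and the stroma score difference 0.390 (exact permutation p = 0.0571). With 4 times the constant the actin median was 0.340. Without GV replicates 1 and 2 the medians of meiotic arrest and cohesin were 0.485 and 0.605. Leaving out single arrays moved the medians over -0.091 to 0.161 for cyclins, 0.108 to 0.348 for the spindle, -0.431 to -0.274 for translation factors, -0.868 to -0.693 for the proteasome, 0.037 to 0.186 for egg activation and -0.270 to -0.083 for antioxidants.

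Weak signals near the added constant limit the folds of the deepest falls.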
